A study of Mus musculus with 11 samples.

Results

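A set of 34 very long mouse genes, most of them known for roles in neurons and led by the splicing factor gene Rbfox1, was followed in hippocampal RNA after insulin was given through the nose. The genes were chosen by name, as genes of very great length that are expressed in neurons or lie at known long loci, with earlier results of these libraries in view. The changes against saline therefore count among the values that selected them, and the numbers below describe the set and do not test it. Of the 34 names, 33 had a row of their own among the 46202 rows of the table. Immp2l appeared only as the split rows Immp2l_1 and Immp2l_2, which are given separately and are left out of every count. All 33 had a value in all 11 libraries and were among the 27721 rows that stayed after the lowest 40% by mean were left out.

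Each library held total RNA of the hippocampus of male C3-C57B1/6J mice aged 2 to 3 months and housed singly. The 3 control libraries are titled as saline, although Untreated is given as their treatment and 0 min as their time. The other groups received 2.4 IU of insulin per nare and were sampled after 15 min (2 libraries, replicates 1 and 3; replicate 2 was not analysed here), 1 h (3 libraries) and 6 h (3 libraries). Isoflurane was used for anaesthesia in all. It is not stated whether libraries come from separate animals, and the p-values cover only the spread among these libraries, which may be technical. Since every saline library carries the time 0 min, time after dosing and insulin cannot be told apart. The numbers that close the column names also run by group, and their order and the treatment cannot be told apart.

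Genes of this size consist almost wholly of introns, and a polymerase has to read through all of them before the transcript is finished. Libraries of total RNA, unlike those made from polyadenylated RNA alone, also hold transcripts whose introns have not yet been removed. Rbfox1 encodes an RNA-binding protein that steers alternative splicing in neurons, and many other genes of the set encode adhesion molecules, receptors, channel partners and scaffolds of the synapse. The 33 genes lay on 15 chromosomes, 16 of them on the plus strand and 17 on the minus strand. In RefSeq (GRCm38.p6) their spans ran from 486.1 kb (Rims2) to 2270.5 kb (Ptprd), with a median of 1135.6 kb. The span was at least 1000 kb in 24 genes and at least 500 kb in 32. By the GENCODE M21 annotation of the same assembly, exons made up 0.0925% (Fhit) to 2.18% (Dpp10) of the GENCODE span, with a median of 0.825%. The GENCODE span can differ from that of RefSeq, and for Dpp10 it is 724089 bases against 1513678. For Rbfox1, at chr16:5884793-7412480 on the plus strand, the share was 0.288%.

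Where a member's transcription starts was looked up among the RefSeq promoter windows of GRCm38.p6, cut to the 250 bases before each start so that no transcribed base of that start is included. Of the 33 genes, 24 had at least 1 window, and there were 42 in all. Auts2 and Grid1 had no entry. Both windows of Rbfox1 and 1 each of Dpp6, Kcnip4 and Ntm are shown because these genes passed the test at 1 h and have windows free of annotated exons, and that of Nrg3 as an example rich in CG dinucleotides, the sites of DNA methylation in promoters. The window of Ctnna2, which also passed, overlaps an exon and is not printed. Each is written 5′ to 3′ on the gene's own strand, with CG in capitals, and none of the 6 overlaps a GENCODE exon. The Nrg3 window lies partly inside the RefSeq gene, whose outermost base on the start side is 39473235.
Rbfox1, chr16:5884543-5884792, plus strand, before the outermost start: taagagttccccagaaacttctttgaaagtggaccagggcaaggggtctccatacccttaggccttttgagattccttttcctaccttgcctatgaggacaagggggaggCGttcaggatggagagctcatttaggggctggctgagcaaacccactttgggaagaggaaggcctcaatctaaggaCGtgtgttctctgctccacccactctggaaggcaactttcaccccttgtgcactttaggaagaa
Rbfox1, chr16:7069585-7069834, plus strand, before a start inside the gene: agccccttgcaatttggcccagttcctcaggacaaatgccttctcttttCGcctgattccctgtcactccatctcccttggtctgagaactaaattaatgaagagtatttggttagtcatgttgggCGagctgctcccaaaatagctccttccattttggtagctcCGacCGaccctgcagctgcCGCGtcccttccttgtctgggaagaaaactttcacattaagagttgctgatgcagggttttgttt
Dpp6, chr5:27261685-27261934, plus strand, before a start inside the gene: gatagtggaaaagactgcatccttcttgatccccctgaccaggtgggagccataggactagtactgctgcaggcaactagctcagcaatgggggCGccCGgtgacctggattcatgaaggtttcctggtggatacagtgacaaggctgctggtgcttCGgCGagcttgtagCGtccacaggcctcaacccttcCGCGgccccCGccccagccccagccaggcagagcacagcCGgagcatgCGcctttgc
Kcnip4, chr5:49285660-49285909, minus strand, before a start inside the gene: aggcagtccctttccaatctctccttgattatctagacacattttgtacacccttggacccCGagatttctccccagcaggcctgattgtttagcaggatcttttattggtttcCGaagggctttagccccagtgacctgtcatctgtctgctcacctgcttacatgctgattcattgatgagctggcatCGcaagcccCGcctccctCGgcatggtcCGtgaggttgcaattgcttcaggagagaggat
Ntm, chr9:29412686-29412935, minus strand, before a start inside the gene: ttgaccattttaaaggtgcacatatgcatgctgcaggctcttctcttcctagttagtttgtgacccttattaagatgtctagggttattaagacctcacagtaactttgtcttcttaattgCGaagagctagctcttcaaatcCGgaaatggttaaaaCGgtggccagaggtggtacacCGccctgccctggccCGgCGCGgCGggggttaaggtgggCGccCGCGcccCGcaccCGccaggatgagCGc
Nrg3, chr14:39473089-39473338, minus strand: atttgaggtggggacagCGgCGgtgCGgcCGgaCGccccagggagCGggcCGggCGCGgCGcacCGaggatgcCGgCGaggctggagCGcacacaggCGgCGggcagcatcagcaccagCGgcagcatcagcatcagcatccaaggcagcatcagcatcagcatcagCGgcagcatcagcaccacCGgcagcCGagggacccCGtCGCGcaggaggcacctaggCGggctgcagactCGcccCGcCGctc

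The outer Rbfox1 window held 2 CG dinucleotides and the inner one 6. The Dpp6, Kcnip4 and Ntm windows shown held 10, 6 and 14, and that of Nrg3 held 27. The windows not printed of Dpp6 held 8 and 6, of Kcnip4 5 and of Ntm 2. Among genes that passed at 1 h Ctnna2 held 30, and among those that did not Tenm2 and Pde4d held 2 and 1. Over the 42 windows the count ran from 1 to 40 with a median of 9.5, against a median of 6 over all 32851 windows. Median GC content was 56.4% in the members' windows and 52.4% in all. The forkhead sequence TGTTTAC, bound by the FoxO factors that insulin signalling keeps out of the nucleus, was searched on both strands. It was found in 1 member window (2.38%), that of Fhit, and in 1040 of all windows (3.17%). These are letters in a window and not measured binding sites.

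What a level means in this table was read from the values. Among rows with a value in only 2 to 7 libraries, differences between 2 libraries gathered 1 unit from the main offset, as a ratio of 2 reads to 1 would give on a log2 scale. Over all 55 pairs of libraries, 64.5% of the 23046 differences between 0.2 and 1.2 in size lay within 0.05 of 1, against 1.7% within 0.05 of the step that natural logs would give. The gene length that enters the signal was found likewise. In 1227 such rows whose span exceeds 3 times the summed exon length, the lowest signal plus the log2 of the span was nearly constant, with quartiles of 3.40 and 3.62. With the exon length in place of the span the quartiles were -0.02 and 1.51. A level is thus per base of the whole gene, introns included, and reads from introns and exons cannot be told apart in it. How reads in overlapping genes or on the opposite strand were assigned is not given in the sources used here.

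**Figure D1:**
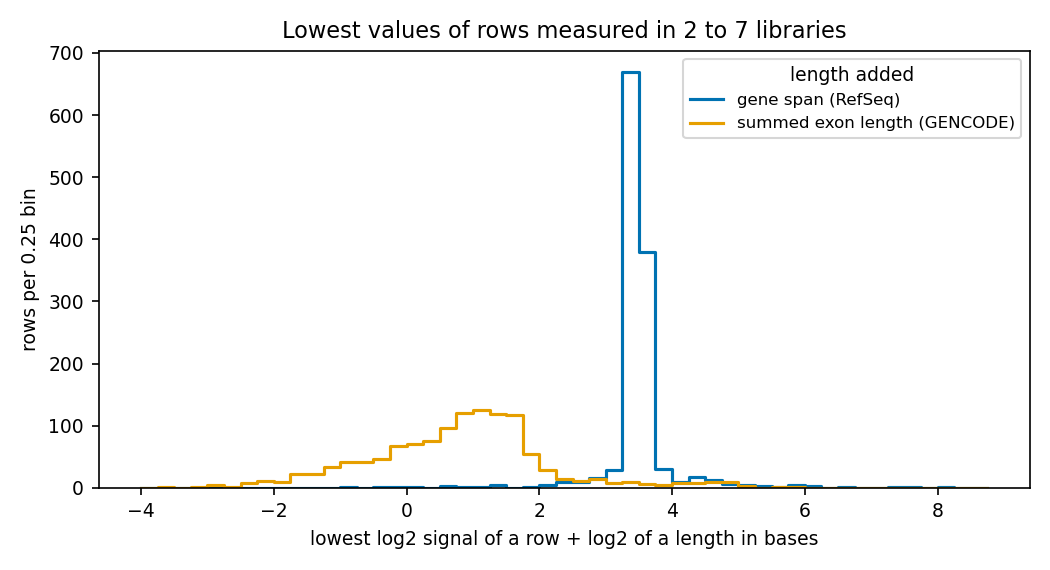
Lowest log2 signal of each of 1227 rows measured in 2 to 7 libraries, plus the log2 of a gene length in bases (x axis), counted in bins of 0.25 (y axis). With the RefSeq span added the rows pile up in a narrow peak near 3.45, the median, whereas with the summed exon length they spread widely around a median of 0.85.

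On this scale the saline means of the members ran from 2.45 ± 0.06 (SD, n = 3) for Kcnip4 to -3.85 ± 0.20 for Fhit. Pcdh9 (2.11 ± 0.23) came next to Kcnip4, followed by Rbfox1 (1.29 ± 0.12), Nrg3 (1.22 ± 0.15) and Lsamp (1.2 ± 0.24), the last 3 of which lay within 1 SD of each other. Wwox (-2.84 ± 0.22) and Fhit, genes at fragile sites that are expressed in many tissues, stood apart below Dab1 (-1.56 ± 0.58). Measured from the lowest step of each library for a gene of the same span, Fhit lay 12.8 doublings up, Rbfox1 17.6 and Kcnip4 18.7. These rows therefore rest on many reads, although the depth of each library is unknown. The neuronal genes Flrt3 and Lrrtm1, which lie within Macrod2 and Ctnna2, were listed at -8.49 to -6.72 and at -9.65 to -6.82, far below their hosts. The signal listed for all rows nested in a member, weighted by span, came to at most 0.0813% of the host's (Nrg3). This leaves out any reads of nested genes that were counted to the host.

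Rbfox1 showed the lowest adjusted p of the set at 1 h. Its log2 signal was 1.29, 1.16 and 1.41 in saline replicates 1 to 3, 0.51 and 0.54 at 15 min, 0.17, 0.38 and 0.37 at 1 h, and 0.87, 0.72 and 0.47 at 6 h. Every insulin library lay below every saline library, and the 1 h libraries lay lowest. Rbfox1 fell by 0.76 at 15 min (SE 0.12; limma adjusted p = 0.048), to 59.0% of the saline level. It fell by 0.98 at 1 h (SE 0.11; limma adjusted p = 0.0047), to 50.6%. At 6 h the log2 difference was -0.60 (SE 0.11), 65.8% of saline, which did not pass (limma adjusted p = 0.32). Between 6 h and 1 h it was 0.38 (95% interval 0.13 to 0.63; limma adjusted p = 0.26). The 1 h call of Rbfox1 held in all 11 fits that left out 1 library and in all 8 other alternatives tried, while the 15 min call was lost in 9 of those 11 and 6 of those 8.

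The family of Rbfox1 has other members outside the set, which lie in shorter genes. Rbfox2, with a span of 229.4 kb, had log2 differences of -0.14, -0.23 and -0.14 at 15 min, 1 h and 6 h. Rbfox3, known as the neuronal marker NeuN, spans 421.8 kb and had differences of 0.29, 0.12 and 0.07. Neither passed in any comparison with saline.

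The potassium channel partners Dpp6, Dpp10 and Kcnip4 encode proteins that join Kv4 channels and shape the A-type current of neuronal dendrites. Dpp6 stood at -0.02, -0.16 and 0.01 with saline, at -0.66 and -0.66 at 15 min, at -0.87, -0.68 and -0.70 at 1 h, and at -0.53, -0.54 and -0.72 at 6 h. No insulin library reached the saline range. Dpp6 fell by 0.69 at 1 h (SE 0.09; limma adjusted p = 0.010), a call lost in 3 of 11 fits without 1 library and in 0 of the 8 other alternatives. At 15 min its log2 difference was -0.60 (limma adjusted p = 0.058) and at 6 h -0.54 (limma adjusted p = 0.25).

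Kcnip4, the most abundant member per base, was at 2.43, 2.42 and 2.52 with saline, 2.19 and 2.13 at 15 min, 1.99, 1.87 and 1.86 at 1 h, and 2.28, 2.03 and 2.01 at 6 h. The groups again did not overlap with saline, and 6 h replicate 1 came closest to it. Kcnip4 fell by 0.55 at 1 h (SE 0.08; limma adjusted p = 0.018), lost in 6 of the 11 fits and with the offset that aligns medians. Its differences of -0.29 at 15 min and -0.35 at 6 h did not pass (limma adjusted p = 0.20 and 0.56). Dpp10 had differences of -0.18, -0.22 and -0.27, with limma adjusted p of 0.46, 0.31 and 0.70. Kcnd2, which encodes a Kv4 channel itself and is no member, had differences of 0.13, -0.11 and -0.29, none past the test.

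The IgLON proteins Lsamp, Opcml, Ntm and Negr1 are lipid-anchored adhesion molecules on neuronal surfaces, and Cadm2 is a nectin-like synaptic adhesion molecule. Ntm was at 0.24, 0.20 and 0.39 with saline, -0.28 and -0.31 at 15 min, -0.65, -0.35 and -0.40 at 1 h, and -0.14, -0.32 and -0.45 at 6 h. Each saline value was above 0 and each insulin value below it. Ntm fell by 0.75 at 1 h (SE 0.11; limma adjusted p = 0.017), lost in 4 of 11 fits without 1 library and with the offset. At 15 min and 6 h its differences were -0.57 and -0.58 (limma adjusted p = 0.10 and 0.35).

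Opcml was at 0.09, 0.19 and 0.58 with saline, -0.22 and 0.09 at 15 min, -0.67, -0.42 and -0.25 at 1 h, and -0.17, -0.32 and -0.40 at 6 h. The 15 min replicate 3 and the lowest saline library were equal after rounding, whereas the 1 h and 6 h libraries lay clear below saline. Its 1 h difference of -0.73 did not pass (SE 0.15; limma adjusted p = 0.061). Lsamp, Negr1 and Cadm2 were within 0.21 of saline at 1 h, with differences of -0.15, -0.21 and -0.18. Cadm2 had a positive difference at 15 min (0.16) and Lsamp one of 0.03. The neighbouring loci of Opcml and Ntm on chromosome 9 thus both lay lower at 1 h, and only that of Ntm passed.

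Grid1 and Asic2 encode subunits of a receptor and a channel. Grid1, which encodes the delta glutamate receptor GluD1, stood at -0.86, -1.01 and -0.79 with saline, -1.46 and -1.35 at 15 min, -1.69, -1.39 and -1.39 at 1 h, and -1.27, -1.29 and -1.35 at 6 h. All 8 insulin values lay below the 3 saline values. Grid1 fell by 0.61 at 1 h (SE 0.11; limma adjusted p = 0.039), a call lost in 10 of 11 fits without 1 library and in 4 of the 8 other alternatives, among them cyclic loess, the replicate block and the fit of only the 2 groups.

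Asic2, a proton-gated cation channel gene, was at -1.05, -1.33 and -0.86 with saline, -1.83 and -1.68 at 15 min, -2.25, -1.89 and -1.68 at 1 h, and -1.83, -1.58 and -1.93 at 6 h. No insulin group overlapped with saline, although the insulin groups overlapped with each other. Asic2 had the largest difference after Rbfox1 at 1 h, -0.86 (SE 0.18), and did not pass (limma adjusted p = 0.058). At 6 h its difference of -0.70 was the largest of all members (limma adjusted p = 0.56).

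The catenins link cadherins to the cell skeleton. Ctnna2, the neuronal alpha catenin, was at 0.33, 0.34 and 0.50 with saline, 0.07 and 0.16 at 15 min, -0.08, -0.02 and -0.02 at 1 h, and 0.19, 0.10 and 0.06 at 6 h. The 1 h libraries were lowest and the 6 h libraries lay between them and saline. Ctnna2 fell by 0.43 at 1 h (SE 0.08; limma adjusted p = 0.037), lost in 9 of the 11 fits and in 5 of the 8 other alternatives, which again include those 3. Ctnnd2, the delta catenin of dendritic spines, had a 1 h difference of -0.31 (limma adjusted p = 0.23).

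Auts2, a regulator of transcription and of the neuronal cytoskeleton, stood at -0.39, -0.60 and -0.28 with saline, -0.92 and -0.92 at 15 min, -1.36, -1.2 and -1.0 at 1 h, and -0.85, -0.80 and -1.13 at 6 h. Saline replicate 2 was the lowest control, still above every insulin library. Auts2 fell by 0.77 at 1 h (SE 0.13; limma adjusted p = 0.030), lost in 7 of the 11 fits and, as for Grid1, in 4 of the 8 other alternatives. Its difference was -0.50 at both 15 min and 6 h (limma adjusted p = 0.18 and 0.58).

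**Figure D2:**
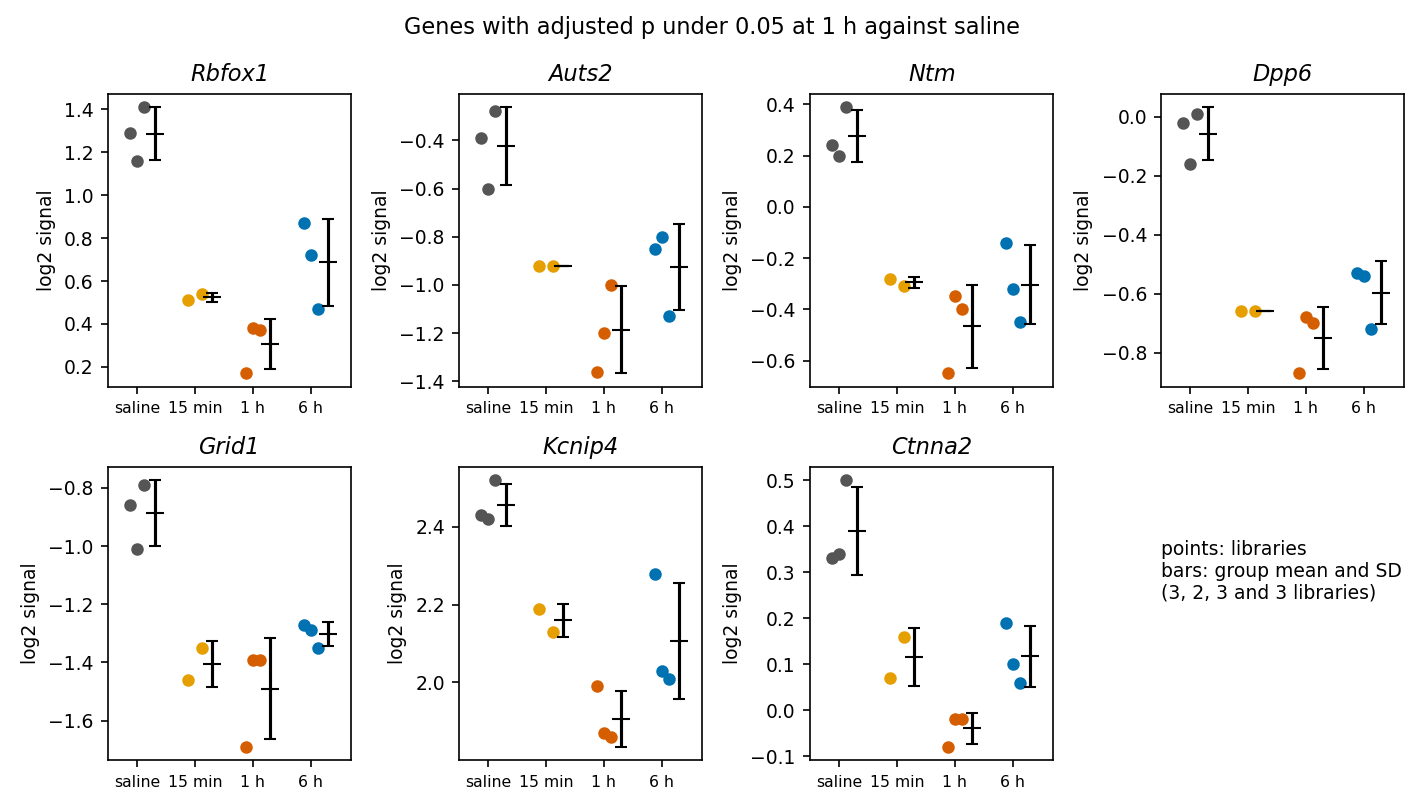
Log2 signal (y axes, scaled per gene) of the 7 genes that passed the test at 1 h, by group (x axes: saline, and 15 min, 1 h and 6 h after insulin); points are libraries, and bars give the group mean and SD over 3, 2, 3 and 3 libraries. In each of the 7 genes every insulin point lies below every saline point, and the 1 h mean is the lowest of the 4 group means. The genes were chosen by their 1 h fall, which favours both. Of all complete rows, 31.6%, 21.8% and 8.9% lay wholly below saline at 15 min, 1 h and 6 h.

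Among the signalling genes, Nrg1 and Nrg3 encode neuregulins, ligands of the ErbB4 receptor, Dab1 the adaptor of the reelin pathway, and Pde4d a phosphodiesterase that breaks down cyclic AMP. Pde4d was at -0.82, -0.89 and -0.73 with saline, -1.21 and -1.03 at 15 min, -1.20, -1.20 and -1.21 at 1 h, and -1.09, -1.10 and -1.19 at 6 h. Its insulin libraries all lay below saline and were close together at 1 h. The 1 h difference was -0.39 (SE 0.09; limma adjusted p = 0.075). Dab1 had a difference of -0.70 at 1 h, near that of Dpp6 in size, yet with an SE of 0.31, the largest of the set, and a limma adjusted p of 0.32. Its saline libraries alone ran from -2.14 to -0.99. Nrg1 and Nrg3 had 1 h differences of -0.49 and -0.32 (limma adjusted p = 0.25 and 0.16).

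The genes at fragile sites and other long loci do not share the synaptic role of the rest. Wwox, an oxidoreductase gene, was at -2.80, -3.07 and -2.65 with saline, -3.49 and -3.37 at 15 min, -3.94, -3.49 and -3.40 at 1 h, and -3.42, -3.11 and -3.47 at 6 h. All insulin values lay below saline, with 6 h replicate 2 only just so. Its 1 h difference of -0.77 equalled that of Auts2 and did not pass (SE 0.20; limma adjusted p = 0.10).

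Macrod2, which encodes an enzyme that removes ADP-ribose, was at -1.18, -1.26 and -0.97 with saline, -1.43 and -1.32 at 15 min, -1.61, -1.53 and -1.43 at 1 h, and -1.36, -1.54 and -1.34 at 6 h. All insulin values lay below saline, the 15 min replicate 3 by the least. Its 1 h difference was -0.38 (SE 0.11; limma adjusted p = 0.14). Fhit, a hydrolase gene, had differences of -0.55, -0.52 and -0.38 (limma adjusted p = 0.27, 0.22 and 0.72). Immp2l encodes a subunit of a mitochondrial inner membrane peptidase. Its row Immp2l_1 ran from -3.49 to -3.23 with saline and from -3.92 to -3.70 at 1 h, and its row Immp2l_2 from -4.57 to -4.01 and from -5.34 to -4.57, neither past the test.

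The neurexin-type and contactin genes encode presynaptic and axonal adhesion molecules. Cntn5 was at -1.46, -1.46 and -1.40 with saline, -1.61 and -1.75 at 15 min, -1.79, -1.69 and -1.81 at 1 h, and -1.65, -1.79 and -1.68 at 6 h. Its groups did not overlap with saline, whose SD of 0.03 was the smallest of the set. The 1 h difference was -0.32 (SE 0.10; limma adjusted p = 0.15). Nrxn3 had differences of -0.10, -0.43 and -0.28 and Cntnap2 of -0.04, -0.16 and -0.24, none past the test.

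The scaffold and active zone genes did not pass at any time. Magi2, a scaffold of synapses, was at 0.03, -0.09 and 0.29 with saline, -0.13 and 0.01 at 15 min, -0.52, -0.26 and -0.18 at 1 h, and -0.26, -0.33 and -0.40 at 6 h. The 15 min libraries overlapped with saline and the later ones did not. Its differences were -0.13, -0.39 and -0.40 (limma adjusted p = 0.67, 0.16 and 0.64). Dlg2, which encodes the postsynaptic scaffold PSD-93, overlapped with saline at every time, with differences of 0.11, -0.25 and -0.23. Rims2, of the presynaptic active zone and the shortest gene of the set, had differences of 0.02, -0.13 and -0.12.

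The remaining surface genes moved little at 15 min. Csmd1 and Csmd3, whose proteins carry CUB and sushi domains, had 1 h differences of -0.43 and -0.15. Ptprd, a receptor phosphatase of the presynapse, Pcdh9, a protocadherin, Tenm2, a teneurin, and Lrp1b, a lipoprotein receptor relative, had 1 h differences of -0.13, -0.13, -0.45 and -0.21. Pcdh9 had the highest 15 min difference of the set, 0.23 (SE 0.14; limma adjusted p = 0.48), and a 6 h difference of -0.32. Its 15 min libraries, at 2.25 and 2.42, overlapped with the saline range of 1.93 to 2.36. Over the 19 members not given library by library, differences ran from -0.55 to 0.23 at 15 min, from -0.70 to -0.13 at 1 h and from -0.59 to -0.12 at 6 h. Their lowest limma adjusted p was 0.27, 0.16 and 0.67 in the same order.

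**Figure D3:**
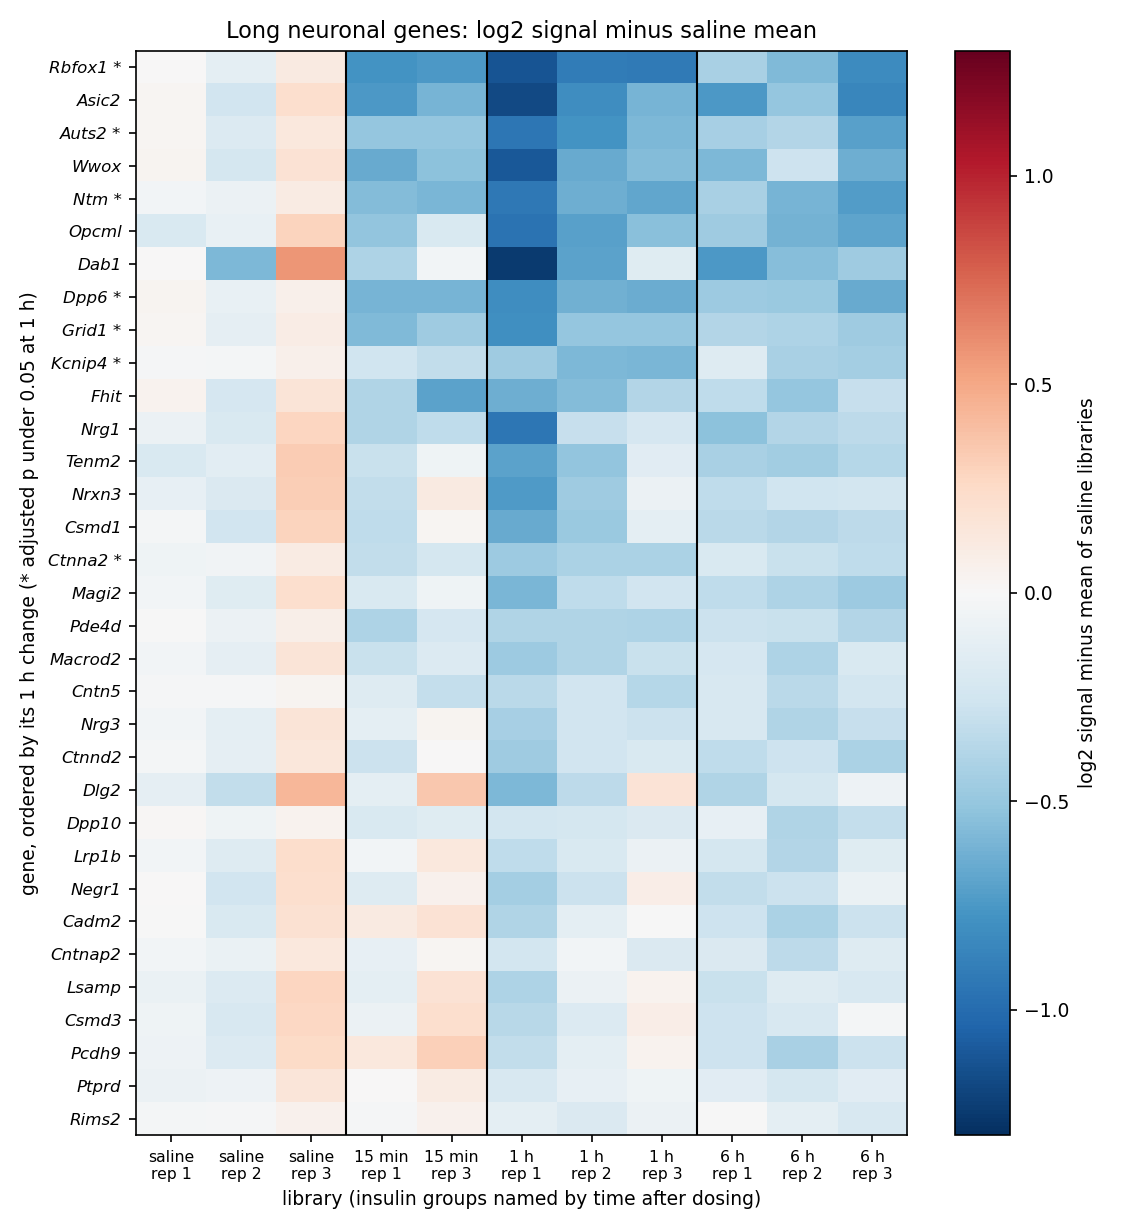
Log2 signal minus the gene's saline mean (colour) for the 33 members (rows, ordered by their 1 h difference; an asterisk marks an adjusted p under 0.05 at 1 h) in the 11 libraries (columns). Blue covers nearly all 1 h and 6 h cells, the 15 min columns hold both colours, and saline replicate 3 is red in all 33 rows.

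Counted over the set, 1 of 33 members fell at 15 min, Rbfox1, where 0.195% of all rows tested fell. At 1 h 7 fell, Rbfox1, Dpp6, Ntm, Kcnip4, Auts2, Ctnna2 and Grid1, where 0.747% of all rows did. At 6 h 0 of 33 passed in limma, as 0% of all rows did. An unadjusted p under 0.05 was found in 21 members and in 1934 of the 27707 rows tested. No member rose against saline. Between 6 h and 1 h 0 members passed in limma, where 0.00722% of all rows fell. Here 2 members had an unadjusted p under 0.05, as had 3069 of the 27701 rows tested. Since the members were picked with these contrasts in view, nothing is read from the gap between their shares and those of all rows. The count at 1 h was 1 to 8 when each library was left out in turn. It was 1 without saline replicate 1, saline replicate 3 or 1 h replicate 1, 2 without saline replicate 2, 3 without 1 h replicate 2, and 4 without 1 h replicate 3 or either 15 min library.

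By sign, 25 of 33 members lay below saline at 15 min and 33 of 33 at both 1 h and 6 h. The median of all rows was itself below 0 at each time (-0.14, -0.11 and -0.04). Of all rows tested, 18998 of 27653, 18497 of 27706 and 15792 of 27707 lay below 0. Below the median of all rows lay 20, 33 and 33 members. The median log2 difference of the members was -0.18, -0.39 and -0.32. Relative to the median of all rows it was -0.05, -0.29 and -0.29. The 15 min value rests on single libraries, as it was 0.10 without 15 min replicate 1, -0.19 without 15 min replicate 3 and 0.06 without saline replicate 3. Every insulin library lay below every saline library in 16 members at 15 min, 20 at 1 h and 26 at 6 h. The same held for 31.6%, 21.8% and 8.9% of the rows with a value in all libraries.

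The deposited scale shifts the median of all rows, and other scalings were compared for that reason. With cyclic loess, 4 members fell at 1 h (Rbfox1, Dpp6, Ntm and Kcnip4), and with an offset that aligned the medians of complete rows 2 did (Rbfox1 and Dpp6). All 33 members stayed below 0 at 1 h and at 6 h under both. At 15 min the number below 0 went from 25 to 22 and 18, and Rbfox1 was not called under either. Over all rows the 1 h calls were 207 falls and 36 rises as deposited, 96 and 40 after cyclic loess, and 115 and 91 with the offset. At 15 min they were 54 and 12, 21 and 10, and 28 and 20.

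Other long genes were set beside the members, since span was what the names had in common. Among tested protein-coding genes, 175 non-members spanned 500 kb or more. Relative to all rows their medians were -0.03, -0.20 and -0.25 after 15 min, 1 h and 6 h, against -0.05, -0.29 and -0.29 for the members. Of the 175, 139, 162 and 173 lay below 0, and 100, 148 and 171 lay below the median of all rows. At 1 h 8 of them fell (4.57%), Hs6st3, Cacna1c, Frmd4a, Fam155a, Adarb2, Rora, Kirrel3 and Nell1, and 0 fell at the other times. Whether members and other long genes differ was not tested.

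Hs6st3, a heparan sulfate sulfotransferase gene, was at -0.52, -0.57 and -0.41 with saline and -1.25, -1.21 and -1.14 at 1 h (limma adjusted p = 0.0091). Cacna1c, which encodes a pore subunit of L-type calcium channels, had a 1 h difference of -0.82 (limma adjusted p = 0.011), and Frmd4a one of -0.88 (limma adjusted p = 0.012). With the -0.70 of Hs6st3, all 3 lie between the 1 h differences of Dpp6 (-0.69) and Rbfox1 (-0.98).

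Across the whole range of spans, the difference at the later times went lower with length. For non-members at 1 h the median relative to all rows was 0.04 under 10 kb (4158 genes), 0.05 from 10 to 30 kb (5263), 0.03 from 30 to 100 kb (4472), -0.02 from 100 to 200 kb (1310), -0.11 from 200 to 500 kb (711), -0.20 from 500 to 1000 kb (142) and -0.20 from 1000 kb (33). At 6 h the same medians were 0.04, 0.04, 0, -0.06, -0.15, -0.26 and -0.25. At 15 min they stayed between -0.04 and 0.06. Non-members within the members' range of mean signal, -4.20 to 2.16, gave -0.19 at 1 h and -0.26 at 6 h for spans of 500 to 1000 kb. Across coding genes, which are not independent replicates, Spearman's rho between span and difference was 0.08 at 15 min (16115 genes), and -0.12 and -0.21 at 1 h and 6 h (16122 genes).

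Within the set, where 32 of 33 genes span 500 kb or more, length did not order the genes in that way. Non-members from 500 to 1000 kb and from 1000 kb were also level, at -0.20 and -0.20 at 1 h and -0.26 and -0.25 at 6 h. Over the 33 members Pearson's r between span and log2 difference was 0.18, 0.19 and 0.20 at the 3 times. With the share of exons in the GENCODE span it was 0.32, 0.25 and 0.18, and with the mean signal 0.44, 0.28 and 0.22. Ptprd, Cntnap2 and Lsamp, the longest members, had 1 h differences of only -0.13 to -0.16. Of the members under 1000 kb, Grid1, Dpp6 and Ntm fell, while Rims2 and Pcdh9 had differences of -0.13 each. Rbfox1, with the largest fall, spans 1527.7 kb.

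**Figure D4:**
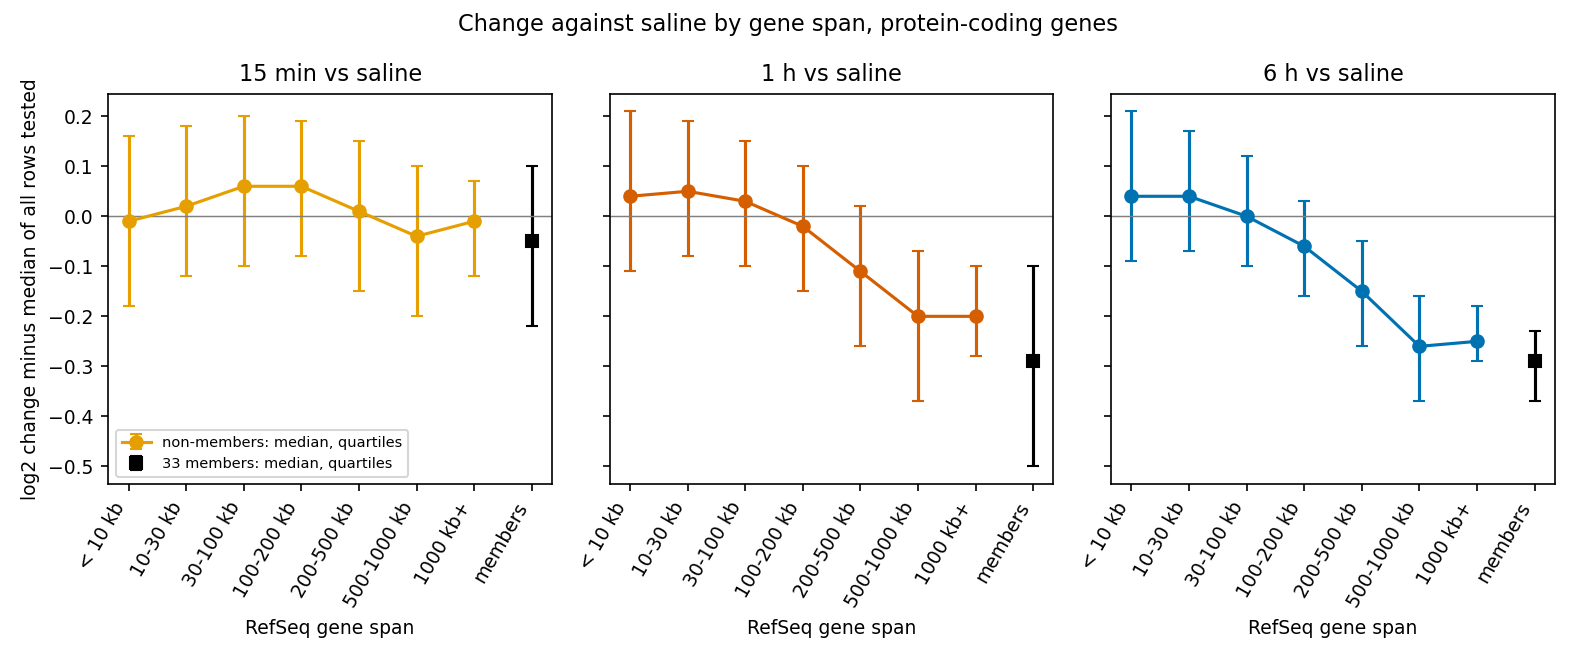
Log2 difference from saline minus the median of all rows tested (y axis) for protein-coding non-members in 7 bins of RefSeq span and for the 33 members (x axis), at 15 min, 1 h and 6 h after insulin; points are medians and bars the quartiles over genes. At 1 h and 6 h the medians of non-members go from 0.04 under 10 kb to -0.20 and -0.25 at 1000 kb or more, and the members lie at -0.29 in both.

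Relatives of the members in the same gene families were set beside them as well. Of 70 listed, 68 were tested, and 1 of them, Kcnip1, fell (1.47%, at 15 min and at 1 h). The median relative to all rows was 0.14, 0.10 and -0.03 at 15 min, 1 h and 6 h. The 15 relatives of 500 kb or more had medians of -0.08, -0.20 and -0.25. The 33 relatives under 100 kb had 0.19, 0.17 and 0.25. Relatives with spans between these limits were not summarized apart. The part of span or of gene family in these differences was not tested.

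Kcnip1, with a span of 364.0 kb, was unlike its relative Kcnip4 in size of change. It stood at 1.37, 0.35 and 0.41 with saline, -2.15 and -1.90 at 15 min, -2.22, -2.13 and -2.22 at 1 h, and -0.76, -1.57 and -1.35 at 6 h. It fell by 2.73 at 15 min and by 2.90 at 1 h (limma adjusted p = 0.014 and 0.0021). No member had a log2 difference of 1 or more in size in any comparison.

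Members deviated from their group means together, library by library. Over the 11 libraries the median Pearson's r between the deviations of 2 members was 0.65 (528 pairs, of which 499 were above 0). These pairs share libraries and their normalization, so the value is a description. It was not computed for other genes, so it is not shown to be particular to the members. Saline replicate 3 was above its group mean in 33 of 33 members and saline replicate 2 in 0 of 33. 1 h replicate 3 was above in 29 and 1 h replicate 1 in 3, and 15 min replicate 3 in 27. In the order named, the median deviation of all complete rows in these libraries was 0.03, -0.05, 0.02, 0 and -0.02. That of the members was 0.17, -0.13, 0.14, -0.19 and 0.07. Dpp6 and Ntm deviated most like Rbfox1 (r = 0.93 each), followed by Auts2 (0.86), and over all members r with Rbfox1 ran from 0.20 (Cntn5) to 0.93 with a median of 0.52.

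The level of the set relative to all complete rows shows the same libraries. The members' median minus that of the complete rows was 1.43, 1.41 and 1.70 in saline, 1.48 and 1.70 at 15 min, 1.19, 1.48 and 1.44 at 1 h, and 1.33, 1.28 and 1.17 at 6 h. The 6 h group was the only one to lie wholly below saline on this measure. The 15 min pair overlapped with saline, and 1 h replicates 2 and 3 lay above saline replicates 1 and 2. For the 175 other long genes the same quantity was 0.39, 0.32 and 0.56, then 0.23 and 0.48, then 0.01, 0.30 and 0.31, and last 0.21, 0.24 and 0.13.

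**Figure D5:**
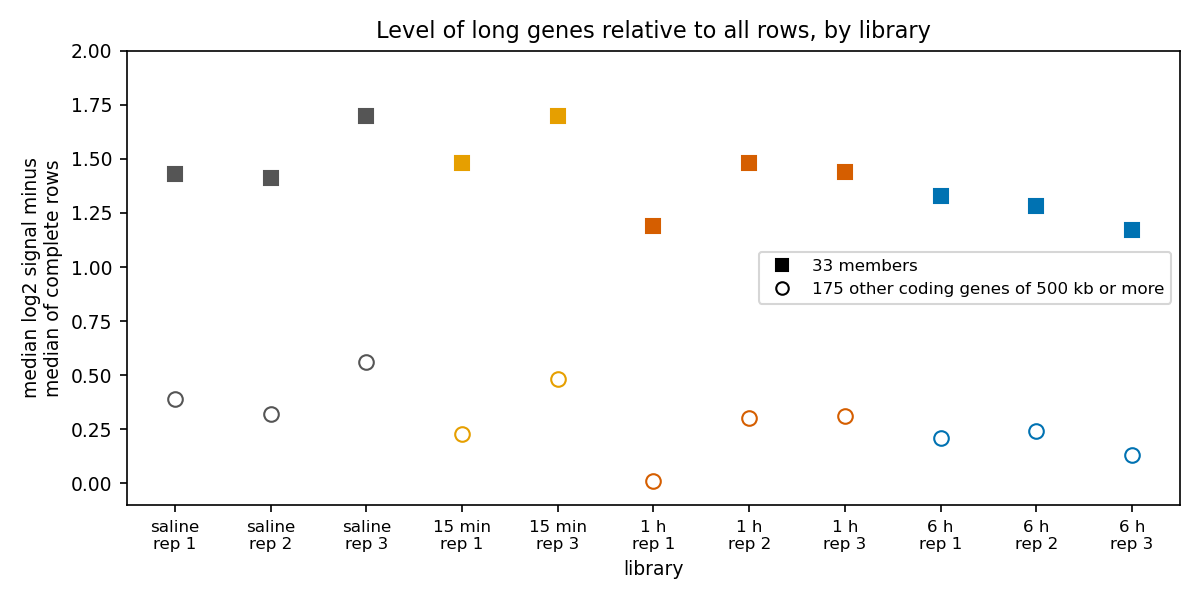
Median log2 signal of the 33 members (filled squares) and of 175 other coding genes of 500 kb or more (open circles), each minus the median of rows with a value in every library (y axis), by library (x axis). Both sets are high in saline replicate 3 and 15 min replicate 3 (members 1.70 in each) and low in 1 h replicate 1 (1.19), and the 6 h libraries lie between 1.17 and 1.33 for the members.

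The 18S ribosomal RNA row, Rn18s-rs5, also differed by group. It was at 16, 13.05 and 13.79 with saline, 9.67 and 10.49 at 15 min, 10.18, 10.51 and 10.22 at 1 h, and 12.19, 11.65 and 11.04 at 6 h. It was highest with saline, followed by 6 h, and the 15 min and 1 h libraries lay lower still and overlapped with each other. Within groups, the deviations of the members correlated with those of this row at -0.20 to 0.49, with a median of 0.14 (0.42 for Rbfox1, 0.49 for Dpp6). The median over all rows was 0.02, below that of the members. No member exceeded 0.5, against 4.8% of the 25771 complete rows. The set is too small for this share to tell the members from other rows. The number of genes with a value also differed, from 32941 to 33510 with saline, and 32037 to 32427, 32133 to 32640 and 32703 to 33653 after 15 min, 1 h and 6 h. The part of either in the members' differences was not tested.

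Markers of the tissue and its cells were read beside the members, and in bulk RNA fewer cells of a type cannot be told apart from less RNA per cell. All markers tested had a value in every library. Of 12 pan-neuronal markers 0 passed in limma in any comparison. An unadjusted p under 0.05 was found for 3 of them at 15 min and for 0 at 1 h and 6 h. Of all rows tested, 4172 of 27653, 4347 of 27706 and 1934 of 27707 had one. The median of the neuronal markers relative to all rows was 0.03, 0.04 and -0.04. Their linear signals summed to 297 to 319 with saline and to 280 to 286, 262 to 303 and 288 to 306 after 15 min, 1 h and 6 h, so that the 15 min libraries alone lay wholly below saline. At each of the 3 times 8 of the 12 lay below 0, and 6, 5 and 8 lay below the median of all rows. At 1 h their differences ran from -0.29 (Nefm, a neurofilament gene) to 0.13 (Snap25, a synaptic vesicle fusion gene). The 8 long noncoding RNAs kept in the nucleus, such as Malat1 and Meg3, had medians of 0.12, -0.01 and 0.02 relative to all rows, with 0 past the test (2, 2 and 1 at an unadjusted p under 0.05).

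Markers of other cells and regions were summed in the same way. The 4 pericyte markers gave sums of 11 to 11.6 with saline. At 15 min these were 7.79 to 8.89, at 1 h 8.0 to 10.3 and at 6 h 7.95 to 9.96, with 0 of 4 past the test. Vtn, with a saline mean of 3.32 against -0.88 or lower for the other markers, weighs most in these sums. At 6 h its difference was -0.39, while Pdgfrb, Rgs5 and Kcnj8 were at -0.01, -0.05 and 0.01. The 6 endothelial markers summed to 11 to 16.9 with saline, and to 8.51 to 10.6 and 9.22 to 10.3 at 15 min and 1 h. At 6 h the sums were 10.7 to 13.8 and overlapped with saline. Of the 6, 5 lay below 0 at 15 min and 1 h, while Flt1 had differences of 0.37 and 0.35. None of them passed. Markers of dentate granule neurons summed to 8.92 to 9.84 with saline, 7.31 to 8.58 at 1 h and 7.78 to 8.62 at 6 h. At 15 min the range of 7.75 to 10.3 overlapped with saline, and 0 of 4 passed the test. C1ql2 had differences of -0.63 at 1 h and -0.57 at 6 h, and Dsp of -1.23 and -0.67. Calb1 went the other way at both times (0.16 and 0.12), and Prox1 was at -0.38 and 0.03. Sums of striatal markers reached 9.68 to 11.6 at 15 min against 4.68 to 7.72 with saline. Of the 5, Drd2 went the other way, with a difference of -0.48, and none passed. Sums of choroid plexus markers were 0.816 to 22.6 at 6 h against 38.5 to 59.4, and none of the 4 tested passed. For astrocytes, oligodendrocytes and their precursors, pyramidal neurons, interneurons, neocortex and thalamus the ranges of each insulin group overlapped with saline. The part of these marker lists in the members' differences was not tested.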

How the data were processed

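Total RNA of mouse hippocampus was sequenced in 11 paired-end libraries that keep the strand, per the labels' protocols. Partek 6.7, bcl2fastq and the build GRCm38 are given, without roles, per the submitters' processing notes. The authors' deposited table holds log2 signals per gene symbol with missing cells, quantile-normalized between libraries as its values show, and read totals are unknown.

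The table was analysed in R 4.3.3 with limma 3.58.1. Rows in the lowest 40% by mean were left out, and a linear model of 4 groups with no replicate block was fitted to all 11 libraries. Moderated two-sided tests with a mean-variance trend were adjusted by Benjamini-Hochberg at 0.05 over all rows tested. The fit was checked on simulated data. Values in every library are given for members past the test and for those with the smallest p, up to 14 in all. The members and all gene lists were chosen with earlier results of these data known. Scalings, filters, fits and left-out libraries were varied. Some genes and marker results are not reported here.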

Additional observations from a re-analysis of the deposited data

How the results depend on the processing

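The members' median relative to all rows kept its sign at 1 h and 6 h under every alternative run, from -0.35 to -0.19 and from -0.34 to -0.22. At 15 min it ran from -0.19 to 0.10 as libraries were left out. Of the 33 members, the number called at 15 min was 1, and it was 2 with the lowest 60% of rows left out, 0 after cyclic loess, with the offset, with only the 2 groups compared, with robust shrinkage and with no mean-variance trend, and 0 to 1 without 1 library. At 1 h it was 7, and 4 after cyclic loess, 2 with the offset, 4 with only the 2 groups compared, and 1 to 8 without 1 library.

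Rows called over the whole table at 15 min were 66, and 31 after cyclic loess, 1 with only the 2 groups, 114 with no trend and 5 to 104 without 1 library. At 1 h they were 243, and 136, 138 and 42 to 479 after cyclic loess, with only the 2 groups and without 1 library. Between 6 h and 1 h they were 3, and 0 with only the 2 groups and 0 to 4 without 1 library. At 6 h against saline the count was 0 in every fit run. With the replicate block the rows called were 38 at 15 min, 159 at 1 h and 0 between 6 h and 1 h, and the members called 0 and 4 at 15 min and 1 h, with Auts2, Ctnna2 and Grid1 lost at 1 h. Whether the numbers pair the libraries is not stated, and the correlations of their deviations do not settle it. Of 15 same-numbered pairs 5 correlated above 0.1 (range -0.06 to 0.24), while pairs with other numbers ran from -0.25 to 0.25. Of the 11 libraries 6 correlated best with a library of their own number.

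Signs of the smaller differences turned. Over the 33 members the number below 0 between 6 h and 1 h was 11, and 18 after cyclic loess and 19 with the offset. Of the 14 members given by library, Cntn5 between 6 h and 1 h was at -0.03 after cyclic loess and -0.04 with the offset, Pde4d at -0.02 with the offset, and Magi2 at 15 min at 0.03 with the offset. Magi2 between 6 h and 1 h ran from -0.11 to 0.06 without 1 library, at 0.02, 0.06 and 0.03 without 1 h replicate 2, 1 h replicate 3 and 6 h replicate 3. Fits that leave 1 library at 15 min assume that it varies like the other groups. The cause of these changes was not tested.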
